A study of Homo sapiens with 6 samples.

Results

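The 39 genes of the HOX clusters were followed in RNA-seq data of MDA-MB-231 cells after knockdown of the long non-coding RNA MIR100HG. The rule for membership uses the symbol and no measured value (HOXA, HOXB, HOXC or HOXD and a number), and they are 39 of the 27745 genes listed. MDA-MB-231 is a human triple-negative breast cancer cell line, that is, one that lacks the estrogen and progesterone receptors and amplified HER2. The cells were infected with lentivirus made from the pLKO.1 vector, carrying a short hairpin RNA: the control hairpin sh-TRC (libraries CTR1, CTR2), the hairpin sh-MIR100HG-1 (libraries KD1-1, KD1-2) or the hairpin sh-MIR100HG-2 (libraries KD2-1, KD2-2). Each group had 2 biological replicates. All 3 groups thus carry an integrated hairpin vector, no uninfected cells were compared, and the samples come from 1 cell line.

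HOX genes encode homeodomain transcription factors that set position along the body axis. Each cluster holds them in the order in which they act, with the low numbers active early and toward the head and the high numbers late and toward the tail, and genes with the same number in different clusters (paralogs) are alike in sequence. The proteins bind DNA together with the TALE cofactors of the PBX, MEIS and PKNOX families. In adult and cancer cells the clusters stay partly on and partly off, Polycomb proteins keeping the silent parts closed and Trithorax/MLL proteins the active parts open. The clusters also hold microRNA genes, the miR-10 and miR-196 families, whose target sites are known in HOX transcripts.

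On GRCh37, the HOXA cluster spans chr7:27132612-27239725 and holds 11 members, and the HOXB cluster spans chr17:46605888-46806540 and holds 10. The HOXC cluster spans chr12:54332549-54449814, the HOXD cluster chr2:176957619-177055635, and each holds 9. HOXA and HOXB genes lie on the minus strand and HOXC and HOXD genes on the plus strand. HOXD1 lies at the end of its cluster, at chr2:177053307-177055635.

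MicroRNAs of the clusters are shown with those encoded within MIR100HG, and HOX transcripts were searched for sites of both. By qPCR, the paper reports that miR-100, miR-125b and let-7a did not change in MDA-MB-231 cells that overexpressed MIR100HG. Levels of mature microRNAs were not analysed here. The mature sequences below are RefSeq's (GRCh38.p14 table), with the seed, bases 2 to 8, in capitals. The hairpins were placed on GRCh37 by matching their sequence: miR-100 at chr11:122022937-122023016, let-7a-2 at chr11:122017230-122017301 and miR-125b-1 at chr11:121970465-121970552. In the clusters, miR-10a lies at chr17:46657200-46657309 within the bounds of HOXB3 and HOXB4, miR-196a-1 at chr17:46709852-46709921 within HOXB7, miR-196a-2 at chr12:54385522-54385631 within HOXC6 and miR-196b at chr7:27209099-27209182 within HOXA9. For miR-10b of the HOXD cluster no mature entry was found.
hsa-miR-100-5p: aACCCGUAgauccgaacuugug
hsa-miR-10a-5p: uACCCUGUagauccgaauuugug
hsa-miR-125b-5p: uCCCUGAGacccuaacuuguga
hsa-let-7a-5p: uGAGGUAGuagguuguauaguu
hsa-miR-196a-5p: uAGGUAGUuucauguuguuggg
hsa-miR-196b-5p: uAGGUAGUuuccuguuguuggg

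Both miR-196 forms share 1 seed, so they are counted together. The seeds of miR-100 and miR-10a differ although most of the rest of the molecules is alike.

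The 3′ untranslated region (3′UTR) of each gene's canonical transcript (GENCODE v44 on GRCh37) was searched for the 7 bases complementary to each seed. Some of the sites in HOX genes that were expressed in these cells are shown with the bases around them, the 7 matching bases in capitals, each read 5′ to 3′ on the gene's strand. Positions are those of the whole stretch shown. The stretch of HOXD1 lies at chr2:177055379-177055406, those of HOXB3 at chr17:46626825-46626852 for miR-10a and chr17:46627052-46627079 for miR-125b, and that of HOXB4 at chr17:46652961-46652988. The stretch of HOXB6 lies at chr17:46673292-46673319, that of HOXB7 at chr17:46684972-46684999 and that around the first of 3 sites in HOXC8 at chr12:54405277-54405304.
HOXD1, let-7a: tttaaaaaagcggtttCTACCTCtctat
HOXB4, let-7a: aaaaccaggccccttcCTACCTCtgggg
HOXB3, miR-10a: ttgacttaacgtgaaaACAGGGTatatt
HOXB3, miR-125b: tacagtttttagagggCTCAGGGatggt
HOXB6, miR-196: actggaaggagcacatACTACCTagaag
HOXB7, miR-196: tcaacactgaaaaaatACTACCTatagg
HOXC8, miR-196: gacactcacaactctaACTACCTgtcag

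Of the 18 HOX genes with enough counts to test, 3 held a miR-196 site (HOXB6, HOXB7 and HOXC8), against 7.61% of the 13935 tested genes with a 3′UTR. A let-7a site was in 2 of the 18 (10.84% of all genes), a miR-125b site in 2 (16.13%), a miR-10a site in 1 (14.23%) and a miR-100 site in 0 (1.28%). The tested HOX genes had a median 3′UTR of 858.5 bases, shorter than the 1279 bases of all these genes. A match of 7 bases is a description of the sequence and not a measured target site.

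The libraries held 43804736 to 64588388 counts in genes. MIR100HG, the target, had 41.9 CPM in CTR1 and 58.5 in CTR2 against 15.2 and 13.2 in KD1-1 and KD1-2 and 16.6 and 10.4 in KD2-1 and KD2-2, so the target was lower in all 4 knockdown libraries. CPM stands here and below for library-scaled counts after TMM normalization, which brings libraries to a common level of most genes. The mesenchymal markers VIM and CD44 were at 1607 to 2095 and at 538 to 957 CPM, PGR, the progesterone receptor, at 0 to 1 count, and ESR1, the estrogen receptor, at 0.120 to 2.79 CPM. ERBB2, the gene of HER2, had 71.6 to 116 CPM. CTR2 and KD1-1 stood apart from the other libraries in 91 genes that had 20 counts or more in both and 4 or fewer in each of the others, CSMD1, FLT4 and FGFR2 leading, and 1 member, HOXB13, is among them. Among 15 pairs of libraries, the next had 1 such gene, and 13 pairs had 0. Of markers of other cell types, PTPRC (leukocytes) was at 0.120 to 0.689 CPM, COL3A1 (fibroblasts) at 0.0472 to 0.689, CD3E (T cells) at 0 to 0.149, and PECAM1 was not analysed here. KRT5 and KRT14, keratins of basal epithelium, were lowest in CTR2 and KD1-1 (0.0680 and 0 CPM for KRT5, 1.79 to 2.58 elsewhere), and ESR1 and CDH1 were highest in those libraries. The part of these differences in the HOX values was not tested, and for HOXD1, HOXC4 and HOXA13 the log2FC without both libraries is given below.

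The cells used part of the HOX repertoire. Among the 39 members, 18 passed the filter, which took out any gene with fewer than 5 counts in 3 or more of the 6 libraries: 8 of 10 in HOXB, 6 of 9 in HOXC, 3 of 9 in HOXD and 1 of 11 in HOXA. A further 6 genes had 0 counts in all libraries (HOXA2, HOXB1 and HOXD9 among them), and 14 had 6 counts or fewer in each library. A count of 0 allows up to 3 counts, which is 0.0464 to 0.0685 CPM in these libraries and covers counting error only. Since low counts often came in pairs, a limit of 3 sequenced fragments would be higher in counts and in CPM. HOXB13 was the remaining gene that failed the filter. Of all 27745 genes, 15372 passed it.

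**Figure D1:**
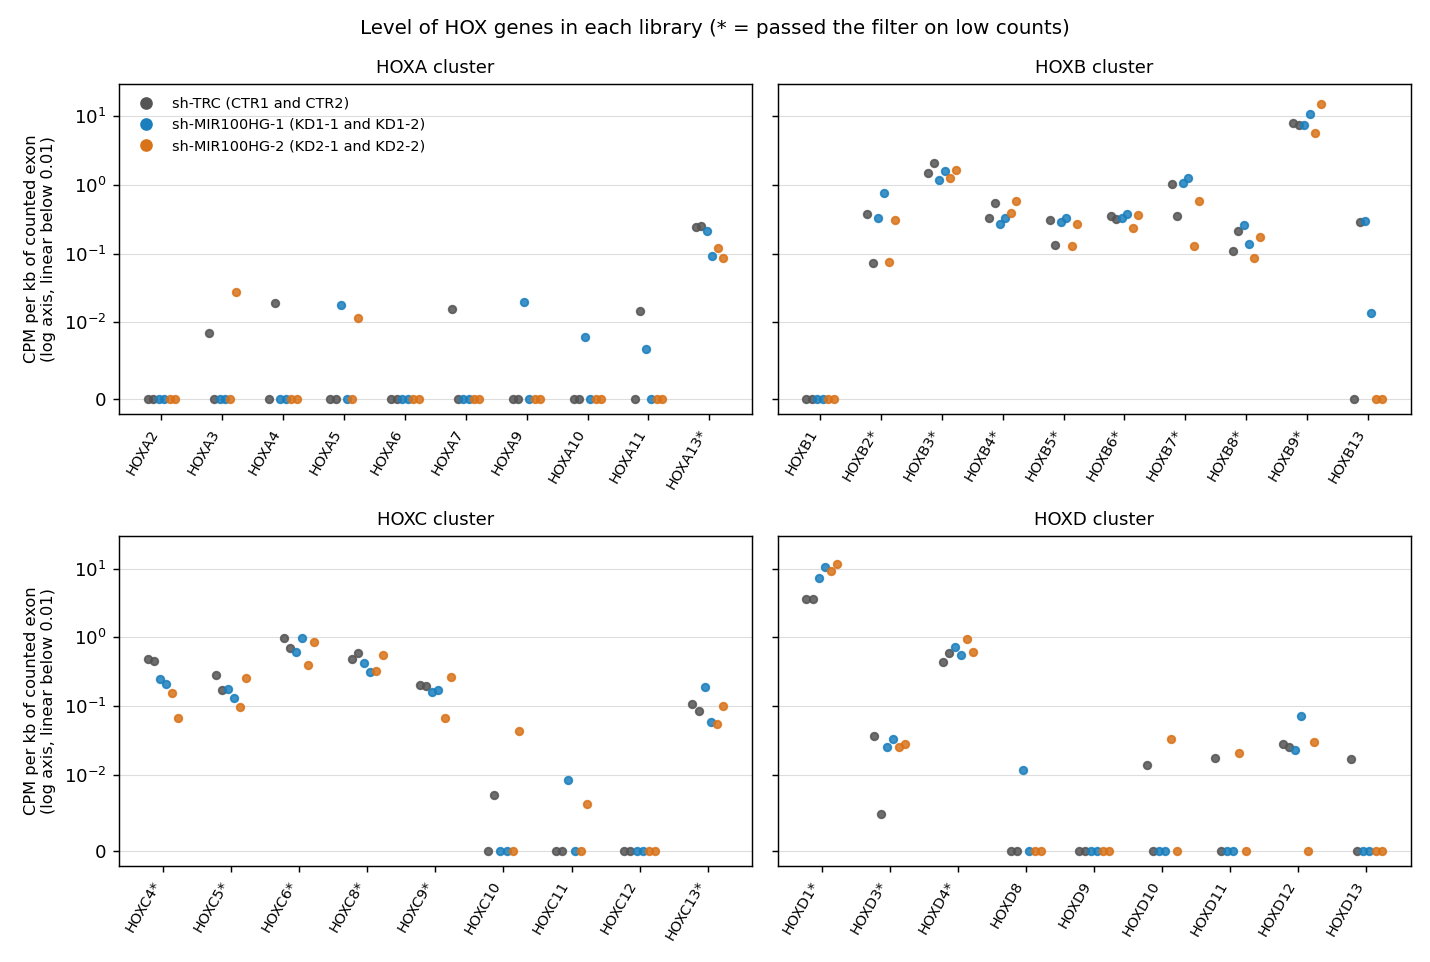
CPM per kb of counted exon (vertical log axis, linear below 0.01) of HOX genes in each of 6 libraries, 1 panel per cluster, with genes in the order of their numbers. HOXB9, HOXB3 and HOXD1 stand highest, HOXA genes other than HOXA13 lie at or near 0, and the HOXC and HOXD genes in use are mostly those of low number.

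The active parts of the clusters were unequal in position. In HOXA, HOXA13, the last gene of the cluster and one that acts in distal limb and hindgut, was the 1 gene in use, with 20 to 76 counts per library, while the rest of the cluster had at most 6. In HOXB, HOXB2 to HOXB9 were in use without a gap, between HOXB1, at 0, and HOXB13, which had more than 2 counts in CTR2 and KD1-1 alone. Of the counted exon bases, 32.95% of HOXB6's, 17.06% of HOXB4's and 11.67% of HOXB3's are shared with other genes, so reads there depend on the counting. In HOXC, HOXC4 to HOXC9 and HOXC13 were in use, and HOXC10, HOXC11 and HOXC12 between them had at most 5 counts. In HOXD, HOXD1, HOXD3 and HOXD4 passed the filter, whereas HOXD8 to HOXD13 had at most 4 counts. Of those 3, HOXD3 had 1 to 7 counts per library, close to the lowest level that was tested.

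Levels of different genes were compared per kb of counted exon. In the control libraries HOXB9 had the highest, a mean of 7.67 CPM per kb, which 64.5% of all tested genes fell below. HOXD1 came next with 3.63 CPM per kb (47.6% of tested genes below it) and HOXB3 after it with 1.82 (35.9%). HOXC6 led the HOXC cluster with 0.834 CPM per kb and HOXA13 had 0.248. The most abundant HOX messages were thus near or below the middle of all genes tested, apart from HOXB9. Without regard to length, HOXB9, HOXB3 and HOXD1 together made up 73.0% and 76.0% of all HOX counts in the controls, 75.7% and 81.6% in KD1-1 and KD1-2, and 84.1% and 85.4% in KD2-1 and KD2-2. The share of HOXD1 alone was 13.4% and 13.0% in the controls and 25.9% to 36.1% in the knockdown libraries.

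HOXD1, a member of the group that acts first and nearest the head, had higher values in all 4 knockdown libraries and the smallest p among the HOX genes. It had 7.15 CPM in CTR1 and 7.17 in CTR2. With sh-MIR100HG-1 it had 14.6 CPM in KD1-1 and 21.1 in KD1-2, and with sh-MIR100HG-2 18.1 in KD2-1 and 23.1 in KD2-2. The controls were nearly equal, and the knockdown libraries did not overlap with them. The group means were 7.16 ± 0.0153 CPM in control (SD, n = 2), 17.8 ± 4.61 with sh-MIR100HG-1 (SD, n = 2) and 20.6 ± 3.53 with sh-MIR100HG-2 (SD, n = 2). Taking both hairpins together against sh-TRC, the log2FC was 1.42 (standard error 0.26), a 2.67-fold higher level. The unadjusted p was 5.4e-04 in the quasi-likelihood test of edgeR, and the p adjusted over all genes by the Benjamini-Hochberg method was 0.381. The log2FC was 1.31 (standard error 0.29) with sh-MIR100HG-1 and 1.52 (standard error 0.29) with sh-MIR100HG-2. Between the hairpins it differed by 0.21 (standard error 0.28), less than its error.

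The call on HOXD1 depended on the test. By p it ranked 17 of 15372 genes, but edgeR's quasi-likelihood test called 0 genes at an adjusted p of 0.05 in this comparison. The adjusted p was 0.00347 in edgeR's likelihood ratio test, 2.2e-04 in DESeq2 and 4.3e-04 in edgeR's quasi-likelihood test without the filter on low counts. Those settings called 109, 129 and 392 genes in this comparison, and the last also called HOXB13, whose counts lie nearly all in CTR2 and KD1-1. When each library was left out in turn, the log2FC stayed between 1.27 and 1.54, with edgeR's adjusted p above the threshold each time. It was 1.54 without both CTR2 and KD1-1, the libraries that share counts in 91 genes.

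HOXD1 counts cannot be assigned to its strand here. Of its 1975 counted exon bases, 58.08% are also exons of the antisense gene HAGLR or of ENSG00000279160 in GENCODE v44 on GRCh37, and the methods name no strand setting for the counting. HAGLR was not analysed here, so sense and antisense reads cannot be told apart for HOXD1. HAGLROS, the antisense RNA of HAGLR, had 0.819 and 0.527 CPM in control and 0.727 to 1.10 with knockdown, a log2FC of 0.45 (standard error 0.47). Its libraries overlapped between the groups.

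HOXD4 and HOXD3, the other tested genes of the cluster, also had log2FCs above 0. Like HOXD1, neither was called in edgeR's quasi-likelihood test. HOXD4 had 0.633 and 0.867 CPM in control, 1.07 and 0.803 with sh-MIR100HG-1, and 1.39 and 0.899 with sh-MIR100HG-2. Its log2FC was 0.46 (unadjusted p = 0.336, edgeR's quasi-likelihood test), and the KD1-2 library lay between the controls. HOXD3 had a log2FC of 0.43 (standard error 0.87) on 1 to 7 counts per library, the highest of them in CTR1. MTX2, the nearest protein-coding gene beyond HOXD1, 78487 bases away, had 35.0 to 39.6 CPM in control and 36.4 to 46.1 with knockdown (log2FC 0.17, standard error 0.19), and EVX2, the homeobox gene beyond HOXD13, was at 0 in all libraries.

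HOXC4, a group 4 gene that is also in use in lymphoid cells, had values in the opposite direction. It had 1.32 CPM in CTR1 and 1.24 in CTR2, on 71 and 73 counts. With sh-MIR100HG-1 it had 0.678 CPM in KD1-1 and 0.567 in KD1-2, and with sh-MIR100HG-2 0.419 in KD2-1 and 0.180 in KD2-2, the last on 9 counts. All 4 knockdown libraries lay below both controls, and both sh-MIR100HG-2 libraries lay below both sh-MIR100HG-1 libraries. The means were 1.28 ± 0.0576 CPM (control), 0.622 ± 0.0784 (sh-MIR100HG-1) and 0.299 ± 0.169 (sh-MIR100HG-2; SD, n = 2 each). For the mean of both hairpins the log2FC of HOXC4 was -1.57 with a standard error of 0.47 and an unadjusted p of 0.00998 in edgeR's quasi-likelihood test (adjusted p = 0.524). It was -1.04 (standard error 0.56) with sh-MIR100HG-1 and -2.10 (standard error 0.60) with sh-MIR100HG-2, and the hairpins differed by -1.06 (standard error 0.59, unadjusted p = 0.110 in edgeR). For the mean of both hairpins, left-out libraries moved the log2FC between -1.93 and -1.33, it was -1.68 without both CTR2 and KD1-1, and in 12 alternatives the adjusted p from edgeR or DESeq2 was never below 0.122. For sh-MIR100HG-2 alone the log2FC was -2.82 without KD2-1 and -1.61 without KD2-2, and the adjusted p was 0.0773 in edgeR's likelihood ratio test, 0.0966 in DESeq2 and 0.104 in edgeR without the filter. PTPRC, the pan-leukocyte marker CD45, also had all 4 knockdown libraries below both controls, with 0.689 and 0.408 CPM in control, 0.286 and 0.354 with sh-MIR100HG-1, and 0.132 and 0.120 with sh-MIR100HG-2, on 6 to 37 counts. Its log2FC was -1.44 for the mean of both hairpins (unadjusted p = 0.0227, adjusted p = 0.596 in edgeR's quasi-likelihood test) and -2.10 with sh-MIR100HG-2. The T-cell marker CD3E was at 0 in KD1-1 and KD2-1, and its control and knockdown libraries overlapped. The part of leukocyte RNA in the HOXC4 values was not tested.

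Of the other 5 HOXC genes tested, 4 had log2FCs below 0, each smaller than its standard error. HOXC6, the HOXC gene with the highest level, had 3.44 and 2.46 CPM in control, 2.15 and 3.40 with sh-MIR100HG-1, and 1.41 and 3.02 with sh-MIR100HG-2. Its groups overlapped, with means of 2.95 ± 0.693, 2.78 ± 0.882 and 2.21 ± 1.14 CPM (SD, n = 2 each) and a log2FC of -0.25 (standard error 0.42). HOXC8 had a log2FC of -0.42, HOXC5 of -0.43, HOXC9 of -0.25 and HOXC13 of 0.04, none at an unadjusted p under 0.05 in edgeR. Of HOXC5's counted exon bases 59.89% are shared with other genes on its strand, as are 17.76% of HOXC4's, so reads there depend on how the counting split them. CALCOCO1 and SMUG1, the protein-coding genes on either side of HOXC, had log2FCs of 0.16 and 0.31 with standard errors of 0.18 and 0.27.

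HOXA13 was the other HOX gene whose knockdown libraries all lay below both controls. It had 1.23 and 1.29 CPM in control, 1.08 and 0.472 with sh-MIR100HG-1, and 0.617 and 0.439 with sh-MIR100HG-2. KD1-1 was close to the controls and the other 3 knockdown libraries were not. The means were 1.26 ± 0.0443, 0.778 ± 0.433 and 0.528 ± 0.126 CPM (SD, n = 2 each), and the log2FC of HOXA13 was -0.97 with a standard error of 0.48 (unadjusted p = 0.0761, adjusted p = 0.676 in edgeR's quasi-likelihood test). Left-out libraries moved it between -1.33 (without KD1-1) and -0.74 (without KD1-2), and without both CTR2 and KD1-1 it was -1.30. For sh-MIR100HG-1 alone the log2FC was -0.68, -1.41 without KD1-1 and -0.22 without KD1-2. SKAP2 and EVX1 flank HOXA. SKAP2 had a log2FC of -0.24 (standard error 0.20), and EVX1 had counts in KD1-1 alone. The knockdown libraries of SKAP2, too, all lay below both controls, as did those of 9.08% of all genes.

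**Figure D2:**
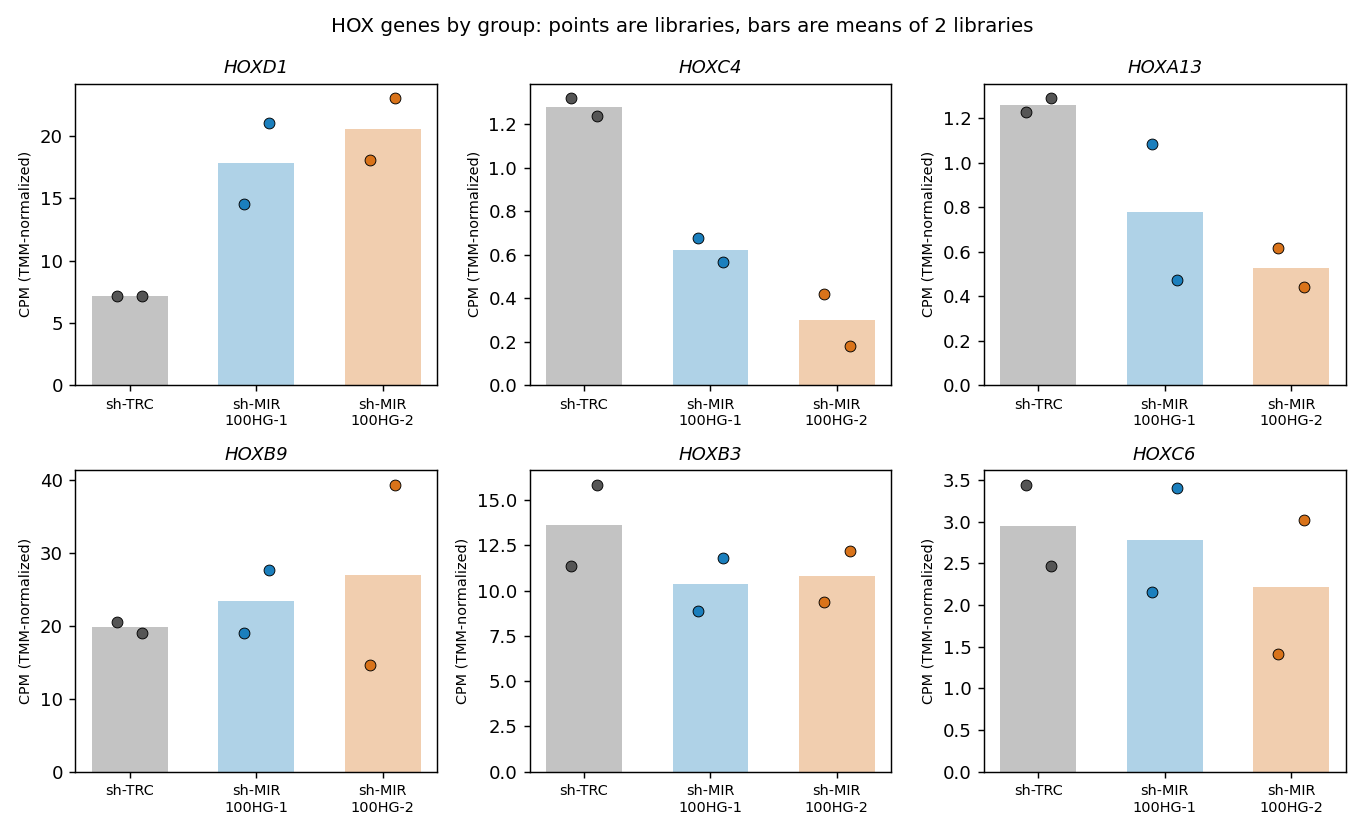
TMM-normalized CPM (vertical axes, from 0) of 6 HOX genes in the sh-TRC, sh-MIR100HG-1 and sh-MIR100HG-2 groups, with points for libraries and bars for means of 2 libraries. The knockdown points of HOXD1 lie above both controls and those of HOXC4 and HOXA13 below both, while the groups of HOXB9, HOXB3 and HOXC6 overlap.

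The HOXB cluster carried most of the HOX signal, and the groups overlapped for its leading genes. HOXB9, which patterns the thorax and mammary gland, had 20.6 CPM in CTR1 and 19.0 in CTR2. It had 19.1 and 27.7 CPM with sh-MIR100HG-1 and 14.6 and 39.3 with sh-MIR100HG-2. The sh-MIR100HG-2 libraries were the lowest and the highest of all 6, on both sides of the controls. The means were 19.8 ± 1.08, 23.4 ± 6.09 and 27.0 ± 17.5 CPM (SD, n = 2 each), with a log2FC of 0.34 (standard error 0.38) that ranged from -0.10 to 0.62 when a library was left out. HOXB3 had 11.4 and 15.8 CPM in control, 8.89 and 11.8 with sh-MIR100HG-1, and 9.39 and 12.2 with sh-MIR100HG-2, a log2FC of -0.37 (standard error 0.26) with overlapping groups.

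Several of the lower genes of the cluster varied widely between replicates. HOXB7, a gene of the trunk that is in use in many breast cancers, had 1.56 and 0.544 CPM in control, 1.63 and 1.91 with sh-MIR100HG-1, and 0.198 and 0.899 with sh-MIR100HG-2. HOXB2, which acts in the hindbrain, had 0.894, 0.170, 0.783, 1.80, 0.176 and 0.719 CPM in CTR1, CTR2, KD1-1, KD1-2, KD2-1 and KD2-2. HOXB5 had 0.633, 0.272, 0.587, 0.685, 0.265 and 0.559 CPM in the same order. All 3 genes were lowest in CTR2 and KD2-1. Between the hairpins the log2FC was -1.68 (standard error 0.77) for HOXB7 and -1.50 (standard error 0.92) for HOXB2, with unadjusted p of 0.0605 and 0.140 in edgeR's quasi-likelihood test. HOXB4, HOXB6 and HOXB8 had log2FCs of -0.22, -0.03 and 0.01 after knockdown, each with an unadjusted p above 0.6 in edgeR. TTLL6, 33055 bases beyond HOXB13, had 1.56 and 1.36 CPM in control and 0.543 to 1.06 with knockdown. Its log2FC was -0.94 (standard error 0.41, unadjusted p = 0.0493, adjusted p = 0.649 in edgeR's quasi-likelihood test). SKAP1 on the other side had a log2FC of -0.48 (standard error 0.46). Both flanking genes had all 4 knockdown libraries below both controls, as had 9.08% of all genes.

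HOXB13, a posterior gene best known from prostate, stood outside the rest. It had 60 counts in CTR2 and 70 in KD1-1, 2 in KD1-2 and 0 in CTR1, KD2-1 and KD2-2. A control library and a knockdown library thus held nearly all its counts, as they did for 90 other genes. The origin of these counts was not tested. HOXB13 did not pass the filter. Without a filter it had an adjusted p below 0.05 in edgeR's quasi-likelihood test in 3 of the 4 comparisons, those that involve sh-MIR100HG-2. In those comparisons, that fit called 392 (mean of both hairpins), 517 (sh-MIR100HG-2 against sh-TRC) and 679 (between the hairpins) of all genes.

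Over the clusters, the summed HOXD level was 8.06 and 8.09 CPM in control, 15.8 and 22.1 with sh-MIR100HG-1, and 19.7 and 24.1 with sh-MIR100HG-2. HOXD1 gives most of that sum. The HOXB sum was 37.4 and 40.2 CPM in control, 34.4 and 46.4 with sh-MIR100HG-1, and 26.9 and 57.1 with sh-MIR100HG-2, so the spread within a group exceeded the difference between groups. The HOXC sum was 6.78 and 5.68 CPM in control, 4.70 and 5.22 with sh-MIR100HG-1, and 2.87 and 5.49 with sh-MIR100HG-2. The HOXA sum was 1.30 and 1.36 CPM in control and 0.472 to 1.22 with knockdown, nearly all of it HOXA13. In bulk RNA, fewer cells that express a gene and less of its RNA per cell cannot be told apart.

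**Figure D3:**
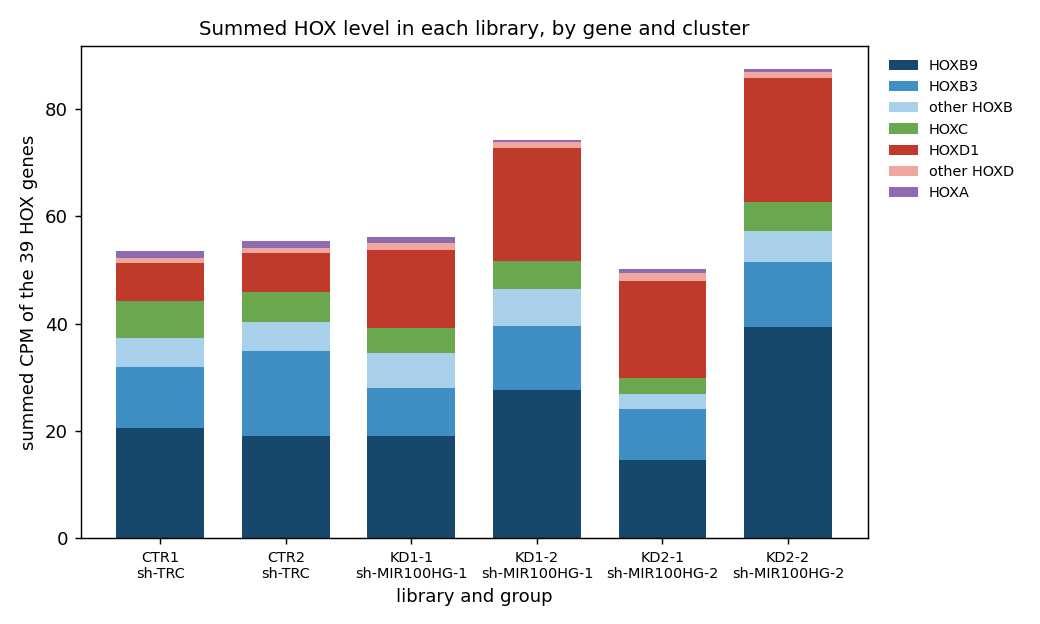
Summed CPM of the 39 HOX genes in each of 6 libraries, split by colour into HOXB9, HOXB3, other HOXB genes, HOXC, HOXD1, other HOXD genes and HOXA. The total ranges from 50.1 CPM in KD2-1 to 87.3 in KD2-2, both sh-MIR100HG-2, while the HOXD1 part is larger in all 4 knockdown libraries than in the controls.

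Counted over the clusters, edgeR's quasi-likelihood test called 0 of the 18 tested HOX genes at an adjusted p at or below 0.05 in each of the 4 comparisons, as it called 0% of all 15372 genes in each. For the mean of both hairpins against control, 1 HOX gene was higher at an unadjusted p under 0.05 (HOXD1, where 3.23% of all genes were) and 1 lower (HOXC4, where 4.44% were). With sh-MIR100HG-1 against control, 1 was higher (HOXD1, 3.1% of all genes) and 0 lower (3.77%). With sh-MIR100HG-2 against control, 1 was higher (HOXD1, 3.71%) and 1 lower (HOXC4, 5.15%). Without KD2-2, HOXC4 was no longer under that p with sh-MIR100HG-2 and HOXB7 was. Without KD2-1, HOXB9 was also under it with sh-MIR100HG-2 and for the mean of both hairpins. Without KD1-1 HOXA13 was for the mean, and without CTR1 HOXB2 was with sh-MIR100HG-1. Between the hairpins 0 were higher with sh-MIR100HG-2 (3.34%) and 0 lower (6.12%). The shares over all genes are those of the fit to all 6 libraries and were not computed with a library left out. These comparisons share the control libraries and are not independent. With 18 genes, a count of 1 is near these background shares. The likelihood ratio test of edgeR called HOXD1 in 2 of the 4 comparisons and DESeq2 called it in 3. For the mean of both hairpins, these tests called 109 and 129 of all 15372 genes.

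Among the 18, 1 had all 4 knockdown libraries above both controls (HOXD1, where 8.4% of all genes did) and 2 had them below (HOXC4 and HOXA13, where 9.08% did). The first count was 3 without CTR1, 2 without CTR2 and 2 without KD1-2. The second was 4 without CTR1, 5 without CTR2 and 4 without KD2-2. The shares over all genes were not computed with a library left out. With fewer libraries any gene separates more easily, so these larger counts are not read as a result about HOX genes. The median log2FC of the 18 was -0.06 for the mean of both hairpins, beside -0.04 over all genes, 0.17 beside -0.00 with sh-MIR100HG-1 and -0.27 beside -0.04 with sh-MIR100HG-2. By cluster, the medians for the mean of both hairpins were -0.01 for 8 HOXB genes, -0.34 for 6 HOXC genes, 5 of them lower, and 0.46 for 3 HOXD genes, all of them higher.

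**Figure D4:**
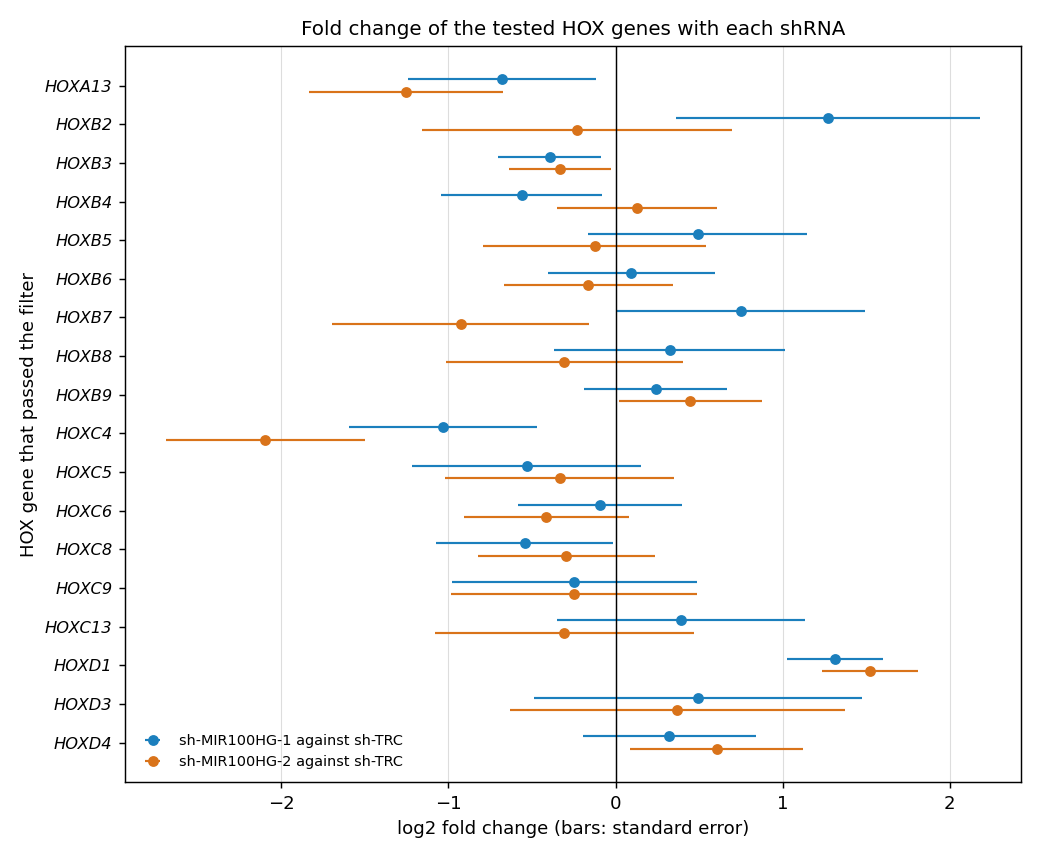
Log2 fold change (horizontal axis) of the 18 tested HOX genes with either hairpin against sh-TRC (blue, sh-MIR100HG-1 and orange, sh-MIR100HG-2), with bars for the standard error. HOXD1 lies at 1.31 and 1.52 and HOXC4 at -1.04 and -2.10, while HOXB2 and HOXB7 lie on different sides of 0 with the 2 hairpins.

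RefSeq's table of promoters (GRCh38.p14) matched 20 of the 39 members with 27 promoters, all windows of the same length just before and after a start. Most are of HOXA genes that were not in use here, several of them of HOXA3. HOXB1 was the only HOXB gene matched, so no HOXB gene in use is covered. The shares below describe these windows and not the HOX genes in use. The CCAAT box, searched as CCAAT on both strands, was in 18 of the 27 (66.67%) against 34.61% of all 35116 promoters. The TATA box (TATAAA) was in 5 of 27 against 11.53%, the GC box (GGGCGG) in 13 against 44.95%, and a HOX-PBX motif (TGATTNAT) in 2 against 2.82%, all on both strands. The bases around the first CCAAT box of the promoter are given for the 3 genes whose libraries did not overlap between control and knockdown, with the box in capitals (ATTGG where it lies on the other strand). They lie in the promoter at chr2:176188418-176188717 (plus strand) for HOXD1, chr12:54016638-54016937 (plus strand) for HOXC4 and chr7:27200042-27200341 (minus strand) for HOXA13, all GRCh38.p14.
HOXD1: gagaggccgcccATTGGccggccagcgcca
HOXC4: ctctatgagagaATTGGgtaaacatggcga
HOXA13: gggggggccgggCCAATgggcggccgcctg

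HOXC4 and HOXC5 had the same promoter window in that table, which is counted for each. The HOXD1 promoter held 36 CpG dinucleotides and that of HOXA13 44, against a median of 14 over all promoters and 22 over the 27 HOX promoters, and the HOXC4 promoter held 15. A match is a description and no factor's binding was measured.

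Among the genes that act with or on the HOX clusters, the TALE cofactors were all expressed and 9 of 9 were tested. PBX2 had the highest level per kb in control (24.8 CPM per kb), before PBX3 (3.36) and PBX4 (3.22). PBX3, a cofactor of many HOX proteins, had 15.8 and 14.6 CPM in control, 27.5 and 26.1 with sh-MIR100HG-1, and 27.3 and 24.7 with sh-MIR100HG-2. The groups did not overlap, and the log2FC was 0.79 (standard error 0.20, unadjusted p = 0.0040, adjusted p = 0.447 in edgeR's quasi-likelihood test). PBX4 had a log2FC of -0.74 with sh-MIR100HG-2. In all, 1 of 9 was higher and 0 lower at an unadjusted p under 0.05 for the mean of both hairpins and for sh-MIR100HG-1, and 1 higher and 2 lower for sh-MIR100HG-2. Over all genes 3.23% were higher and 4.44% lower for the mean, 3.1% and 3.77% for sh-MIR100HG-1, and 3.71% and 5.15% for sh-MIR100HG-2, so a count of 1 in 9 is not set apart from the background.

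Of 28 Polycomb genes, all tested, 3 were higher at an unadjusted p under 0.05 and 0 lower in edgeR's quasi-likelihood test for the mean of both hairpins (3.23% and 4.44% of all genes), and their median log2FC was 0.13 beside -0.04 over all genes. SCML2, a subunit of Polycomb complexes, had 13.3 and 10.9 CPM in control, 25.7 and 31.0 with sh-MIR100HG-1, and 24.4 and 23.8 with sh-MIR100HG-2 (log2FC 1.11, standard error 0.22). JARID2 and MTF2, accessory subunits that bring the methyltransferase complex PRC2 to DNA, had log2FCs of 0.59 and 0.77 with standard errors of 0.19 and 0.25. All 3 had their 4 knockdown libraries above both controls and adjusted p in edgeR of 0.381 to 0.554. EZH2, the catalytic subunit of that complex, had 74.5 and 72.3 CPM in control and 61.3 to 100.2 with knockdown (log2FC 0.13). RING1, PHC2 and RBBP7 had the highest Polycomb levels, 40.5, 37.1 and 28.4 CPM per kb in control. With sh-MIR100HG-1 3 were higher and 0 lower (3.1% and 3.77% of all genes), and with sh-MIR100HG-2 2 were higher and 0 lower (3.71% and 5.15%).

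Of 21 Trithorax/MLL genes, all tested, 1 was higher and 0 lower at an unadjusted p under 0.05 for the mean of both hairpins and for sh-MIR100HG-1, and 2 higher and 0 lower for sh-MIR100HG-2, with a median log2FC of 0.10 for the mean. Over all genes the shares in these 3 comparisons were 3.23%, 3.1% and 3.71% higher and 4.44%, 3.77% and 5.15% lower, and counts of 1 or 2 genes are not set apart from them. DOT1L, a histone H3 methyltransferase that MLL fusion proteins recruit to HOX genes, had 82.0 and 119 CPM in control, 167 and 147 with sh-MIR100HG-1, and 213 and 230 with sh-MIR100HG-2. Its groups did not overlap (log2FC 0.89, standard error 0.22, unadjusted p = 0.0030 and adjusted p = 0.447 in edgeR). KDM6B, which removes the Polycomb mark, had a log2FC of 0.73 with sh-MIR100HG-2 and 0.21 with sh-MIR100HG-1. AFF4, MLLT1 and WDR5 had the highest levels of the list, 24.6, 24.5 and 23.0 CPM per kb in control. Of 10 ParaHox and even-skipped relatives 1 was tested, GSX2, with a log2FC of -0.22 (standard error 0.55), and of 21 non-coding genes of the clusters HAGLROS was the 1 analysed here.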

How the data were processed

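RNA of MDA-MB-231 cells with sh-TRC, sh-MIR100HG-1 or sh-MIR100HG-2 (n = 2 each) was sequenced. The deposited values were raw counts per gene. Per the methods, the authors trimmed reads, mapped them to GRCh37 with STAR (2.5.2a in the submitters' processing notes) and the GENCODE annotation, and counted exons grouped into genes with FeatureCounts. Strand and handling of multimapping reads were not given in the sources used here, so overlapping genes and paralogs are uncertain.

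Samples were grouped by their labels. The 39 members and the gene lists were chosen with earlier results of these data known. Symbols came from an annotation of the same build. Any gene with fewer than 5 counts in 3 or more of 6 libraries was removed (12373 genes), and 15372 were tested. Counts were TMM-normalized and fitted in 1 model of 3 groups with the quasi-likelihood test of edgeR 4.0.16 (R 4.3.3), with 3 residual degrees of freedom. The 4 comparisons were the mean of both hairpins, and each hairpin, against sh-TRC, and the hairpins against each other. P-values were adjusted over all tested genes by Benjamini-Hochberg and called at 0.05. 0 genes also passed a log2FC above 2 or below -2. Standard errors were taken from the log2FC and the F statistic. Values in each library were given for the highest member of each cluster per kb, members at an unadjusted p under 0.05 and members whose knockdown libraries all lay beyond both controls (mean of 10 counts or more), and HOXB2, HOXB3, HOXB5, HOXB7, HOXB13 and HOXD4 were added after their values were seen.

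The common biological coefficient of variation was 27.8%. Among genes with 1 to 20 counts, 66.2% to 69.8% of values per library were even numbers (43 of 57 HOX values), so counts often come in pairs and the number of independent fragments is smaller than the counts. Sequences came from RefSeq tables and the GRCh37 genome. Some values and sequences are not reported here. Alternatives were edgeR's likelihood ratio test, DESeq2 1.42.0, RLE size factors, no filter, a replicate block, leaving out each library and, chosen after seeing the data, leaving out both CTR2 and KD1-1.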

Additional observations from a re-analysis of the deposited data

How the results depend on the processing

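Limits. With 2 libraries per group and 3 residual degrees of freedom, an adjusted p above 0.05 does not show that a HOX gene did not differ. Of the 18 tested HOX genes, 14 had a mean under 100 counts per library, where counting error adds to the spread between replicates. When a library was left out, its group had 1 library, assumed to vary like the others.

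For the mean of both hairpins against sh-TRC, sh-MIR100HG-1 alone, sh-MIR100HG-2 alone, and the second hairpin against the first, 0 genes were called in edgeR's quasi-likelihood test, 109, 34, 121 and 91 in its likelihood ratio test, 129, 65, 165 and 103 in DESeq2 and 392, 227, 517 and 679 without the filter on low counts. Leaving out 1 library gave 0 to 1, 0 to 3, 0 to 5 and 0 to 7. Without both CTR2 and KD1-1, an alternative chosen after seeing the data, the count was 1 for the mean, 12 for sh-MIR100HG-2 and 14 between the hairpins. Shares over all genes were not computed in these settings, so the following counts of HOX genes called are not read as a result about HOX genes. In the likelihood ratio test 1 was called (HOXD1) for the mean and for sh-MIR100HG-2. DESeq2 called 1 (HOXD1) for the mean and for each hairpin. Without the filter 2 were called (HOXD1 and HOXB13) for the mean and for sh-MIR100HG-2. That fit also called 1 for sh-MIR100HG-1 (HOXD1) and 1 between the hairpins (HOXB13). Leaving out a library called 0.

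At an unadjusted p under 0.05, the count of HOX genes between the hairpins was 1 in the likelihood ratio test and DESeq2 (HOXB7) and 3 without the filter. That count and the one for sh-MIR100HG-1 changed when some libraries were left out. The shares over all genes at that p were not computed in these settings, so the counts are not read as a result about HOX genes. Left-out libraries gave 1 to 3 HOX genes with all knockdown libraries above the controls and 2 to 5 below. For these counts, too, no share over all genes was computed. Without the filter 33 HOX genes were tested, and with at least 1 CPM in 2 libraries 10. The median log2FC of the tested HOX genes stayed within -0.34 to 0.16 over the left-out libraries.

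Replicate numbers were not treated as pairs in the main fit. Deviations of same-numbered libraries from their group means correlated across genes at -0.187 (sh-TRC and sh-MIR100HG-1), 0.00912 (sh-TRC and sh-MIR100HG-2) and 0.407 (between the hairpins). Same-numbered libraries thus varied together between the hairpins and not with the controls. The labels do not say whether they were prepared together. With a replicate block, edgeR's quasi-likelihood test called 0 genes in all 4 comparisons, and for the mean of both hairpins the adjusted p of HOXD1 was 0.166 and the log2FC of HOXC4 was -1.61 (adjusted p of 0.348).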
